A study of Mus musculus with 4 samples.

Results

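The mitochondrial respiratory chain genes described here are the genes whose symbols begin with Nduf, Sdh followed by a letter from a to d, Uqcr, Cox followed by a number from 4 to 8, or Atp5. They were 87 of the 12393 genes that the Affymetrix 430A array measured with probe sets assigned to 1 symbol. They comprised 38 genes of complex I, 7 of complex II, 8 of complex III, 17 of complex IV and 17 of complex V, and 8 of the 87 encode assembly factors rather than subunits. Ndufa4, which carries a complex I symbol, was counted with complex IV, where its protein is now placed. Each of the 46 genes with several probe sets was represented by its brightest one in mean log2 signal. The 4 arrays held seminiferous tubules of adult XX/Sry males, whole testis of XX/Sry males, seminiferous tubules of adult W/Wv males and whole testis of W/Wv males, with 1 array per group and no replicates. XX/Sry males are XX mice with an Sry transgene that directs testis formation, and the sources used here do not name their strain. W/Wv males carry a pair of mutant alleles of the receptor gene Kit and were bought as a cross of WB and B6. Both kinds of male are known to have testes poor in germ cells, so neither stands for a normal testis. To obtain tubules, testes were digested with collagenase (5 mg/ml, 37 °C, 40 min) and rinsed on a 70 µm strainer that let interstitial cells pass, whereas whole testis kept them. The sources used here do not say whether a genotype's tubules and whole testis shared animals.

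The respiratory chain moves electrons from NADH, at complex I, and from succinate, at complex II, through complex III and cytochrome c to oxygen at complex IV. The proton gradient built on the way drives ATP synthesis by complex V. Except for complex II, each complex joins subunits encoded by mitochondrial DNA to many encoded in the nucleus. In the testis, Leydig cells between the tubules start steroid synthesis inside their mitochondria, whereas Sertoli cells within the tubules are known for a largely glycolytic metabolism that supplies lactate to germ cells.

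The values are MAS5 signals on a linear scale, and every fold is a ratio between single arrays. The highest signal among 27 bacterial poly-A control probe sets served as a background bound and was between 46.1 and 76.3 on the 4 arrays. Of the 87 genes, 85 lay above it on all 4 arrays, and Cox4i2 and Cox8b did not. The group was bright, with 73 of 87 genes among the 3099 brightest genes by mean log2 signal, so these brightest genes are given beside all genes as background. The 18 hybridisation spike probe sets had a median log2 ratio of tubules over whole testis of 0.56 in W/Wv, where the respiratory chain genes were lower, and of 0.00 in XX/Sry. For XX/Sry over W/Wv the spike median was -0.66 in tubules and -0.13 in whole testis, so the W/Wv tubule array stood apart in both of its comparisons. The part of this offset in the results was not tested.

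Because most of the group had lower signals in tubules, 4 promoters are shown. Uqcr11, Atp5e and Uqcr10 are the genes that passed the test described below, and Cox6a1 was slightly higher in tubules of both genotypes by its brightest probe set but lower by its second. Each sequence is the 250 bases before the gene's start from RefSeq, build GRCm38.p6, written 5′ to 3′ on the gene's strand, which is the minus strand for all 4. They lie at chr10:80406822-80407071 for Uqcr11, chr2:174464102-174464351 for Atp5e, chr11:4704345-4704594 for Uqcr10 and chr5:115348959-115349208 for Cox6a1. Capitals mark matches to the core motifs of the transcription factors NRF1 and GABP, both known regulators of nuclear respiratory genes.
Uqcr11: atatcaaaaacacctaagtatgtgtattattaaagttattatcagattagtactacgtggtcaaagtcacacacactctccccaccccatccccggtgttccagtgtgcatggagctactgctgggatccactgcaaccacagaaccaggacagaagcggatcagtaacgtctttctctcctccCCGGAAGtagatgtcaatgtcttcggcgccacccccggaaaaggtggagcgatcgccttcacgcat
Atp5e: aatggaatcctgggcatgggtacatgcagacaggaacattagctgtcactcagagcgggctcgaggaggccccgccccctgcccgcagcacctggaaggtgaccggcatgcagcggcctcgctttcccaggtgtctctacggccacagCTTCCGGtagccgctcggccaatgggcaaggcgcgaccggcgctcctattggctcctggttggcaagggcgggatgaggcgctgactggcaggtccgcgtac
Uqcr10: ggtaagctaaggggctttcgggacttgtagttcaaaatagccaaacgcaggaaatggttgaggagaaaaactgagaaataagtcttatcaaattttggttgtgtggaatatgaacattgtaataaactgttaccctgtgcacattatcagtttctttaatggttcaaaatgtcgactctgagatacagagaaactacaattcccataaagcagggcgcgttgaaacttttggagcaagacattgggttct
Cox6a1: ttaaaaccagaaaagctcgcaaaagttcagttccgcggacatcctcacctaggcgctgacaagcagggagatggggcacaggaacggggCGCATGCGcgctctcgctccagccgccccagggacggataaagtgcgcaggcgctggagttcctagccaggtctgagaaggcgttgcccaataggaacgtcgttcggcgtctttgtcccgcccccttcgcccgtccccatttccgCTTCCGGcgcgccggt

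Of the 87 genes, 73 had such a promoter window, and 4 core motifs were searched on both strands. GCATGCG, for NRF1, occurred in 9 of 73 (12.3%), against 3.43% of all windows and 5.28% of the windows of genes on the array. CCGGAAG, for GABP, occurred in 14 (19.2%), against 7.83% and 12.9%. ATGGCGG, for YY1, occurred in 6 (8.22%), against 2.58% and 3.90%, and AAGGTCA, for ERRA, in 4 (5.48%), against 4.70% and 3.90%. At least 1 of the 4 was present in 27 windows (37.0%), against 17.0% and 23.4%. In the windows shown, the GABP motif begins 66 bases before the start in Uqcr11, 102 bases before it in Atp5e and 16 bases before it in Cox6a1. The 8 capitals at 161 bases before the start of Cox6a1 hold the NRF1 motif on both strands, in overlap. Uqcr10 has none of these letters in its window. Among the 57 genes that were lower in tubules of both genotypes, 11 had the GABP motif and 6 the NRF1 motif, and among the other 16 genes 3 had the GABP motif and 3 the NRF1 motif. These are matches of letters and not measured binding sites.

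Respiratory chain transcripts had lower signals in isolated tubules than in whole testis, in both genotypes and in every complex. The median log2 ratio of tubules over whole testis was -0.46 in XX/Sry and -0.56 in W/Wv, against -0.02 and -0.15 over all genes and 0.12 and 0.08 over the brightest genes. In XX/Sry 76 of 87 genes were lower, against a background of 51.0% of all genes, and in W/Wv 73 of 87, against 58.4%. In both genotypes 67 of 87 (77.0%) were lower, against 34.4% of all genes and 25.4% of the brightest genes. Another 5 of 87 (5.75%) were higher in both, against 24.9% and 40.4%. The shift was broad but shallow. By 1.5-fold or more in both genotypes, 19 genes (21.8%) were lower, against 12.1% of all genes and 6.23% of the brightest genes. By the same rule 0 of the 87 were higher, against 623 of all 12393 genes and 226 of the 3099 brightest genes. At the 2-fold rule that the study set, 3 genes (3.45%) were lower, which is near the backgrounds of 5.74% and 2.58%. In bulk tissue of this kind, fewer cells of a type and less RNA per cell cannot be told apart.

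**Figure D1:**
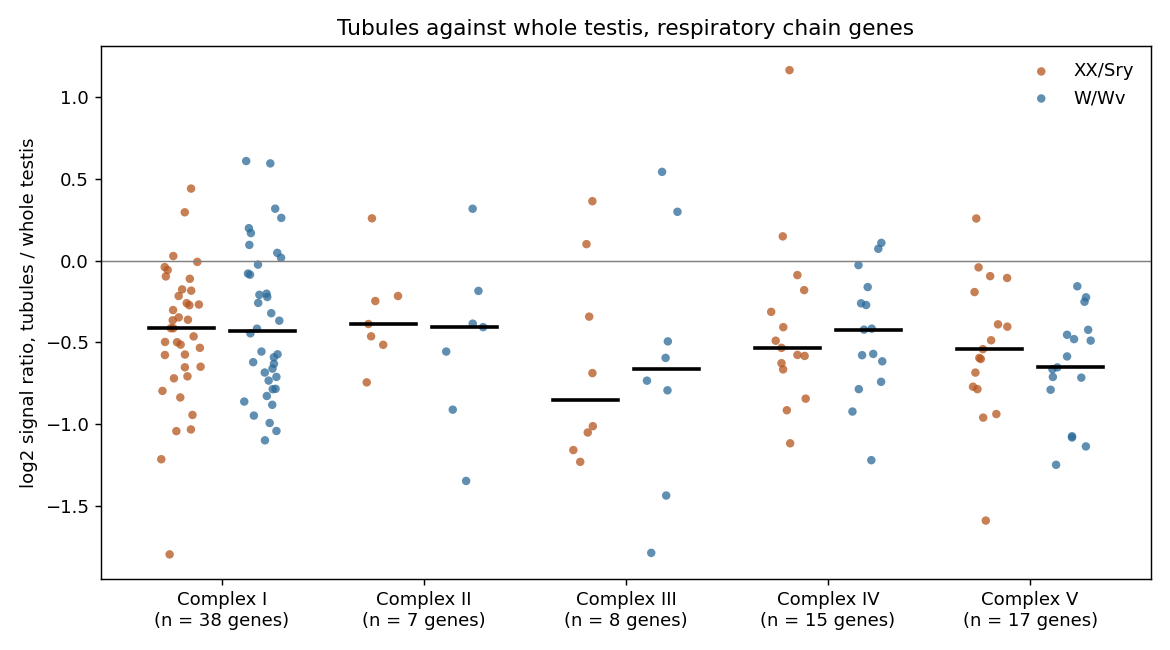
Log2 ratio of the tubule signal over the whole testis signal for the 85 genes above the background bound on all arrays, by complex, in XX/Sry and in W/Wv; each point is 1 gene and each bar a median, which for the 15 complex IV genes drawn is -0.53 in XX/Sry and -0.42 in W/Wv. Most genes of every complex lie below 0 in both genotypes, among them 16 of the 17 genes of complex V.

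The only error that 1 array per group allows came from a limma fit of genotype and preparation to all 4 arrays. It takes disagreement between the pairs as error and has 1 residual degree of freedom, and its p-values were adjusted over all 22626 probe sets. In that fit 3 of the 87 genes fell in tubules (Uqcr11, Atp5e and Uqcr10) and 0 rose, against 1.12% of all genes called lower and 0.234% called higher. Without adjustment, 32 of the 87 had p under 0.05 with lower signals in tubules, against 8.82% of all genes, and 0 with higher signals, against 6.01%. All 3 calls were lost, at adjusted p between 0.564 and 0.571, when limma moderated the variance without a trend on mean signal. That setting called 0 of the 22626 probe sets for preparation, so the calls given below for genes of other lists were lost too.

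Complex III passes electrons from ubiquinol to cytochrome c. It had the lowest median in each genotype among the 5 complexes, -0.85 in XX/Sry and -0.66 in W/Wv. In W/Wv the median of complex V was nearly as low, at -0.65. Uqcr11, a small accessory subunit, had signals of 1539 in XX/Sry tubules and 3609 in XX/Sry whole testis, while it had 1633 in W/Wv tubules and 5632 in W/Wv whole testis. Both tubule arrays lay below both whole testis arrays, by 2.35-fold in XX/Sry and 3.45-fold in W/Wv. The fitted log2 difference was -1.51 ± 0.255 (SE, limma adjusted p = 0.0186). Uqcr10, another small accessory subunit, had 2242 in XX/Sry tubules and 4521 in XX/Sry whole testis, and 2298 in W/Wv tubules and 6216 in W/Wv whole testis. It fell in tubules with a fitted log2 difference of -1.22 ± 0.254 (SE, limma adjusted p = 0.0466), and its other 2 probe sets were also lower in both genotypes. This call was marginal, since adding 50 to every signal gave an adjusted p of 0.0512, averaging probe sets 0.0569, median centring 0.0883 and leaving out probe sets with a suffix for shared transcripts 0.439.

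The other small subunits of complex III were lower too but did not pass the test. Uqcrq, which sits beside cytochrome b, was 2.23-fold lower in XX/Sry tubules and 1.73-fold lower in W/Wv tubules. Uqcrh, the hinge protein that helps cytochrome c to dock, was 2.07-fold and 1.66-fold lower. Uqcrb, a ubiquinone-binding subunit, was 1.27-fold and 1.51-fold lower.

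The 3 core proteins of complex III within the symbol rule, which leaves out Cyc1, differed among themselves. Uqcrfs1, the Rieske iron-sulfur protein, had 2829 in XX/Sry tubules and 2638 in XX/Sry whole testis, and 2497 in W/Wv tubules and 1714 in W/Wv whole testis. Its tubule signal was the higher one in both genotypes, by 1.07-fold and 1.46-fold. Uqcrc2, a structural core protein, was 1.29-fold higher in XX/Sry tubules and 1.23-fold higher in W/Wv tubules, but its second probe set ran the opposite way, with log2 ratios of -0.35 and -0.76. Uqcrc1, the partner of Uqcrc2, was 1.61-fold and 1.41-fold lower, as the accessory subunits were. The median log2 ratio was -1.05 in XX/Sry and -0.79 in W/Wv over the 5 accessory subunits, and 0.10 and 0.30 over the 3 core proteins. With so few genes on each side, the difference was not tested.

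**Figure D2:**
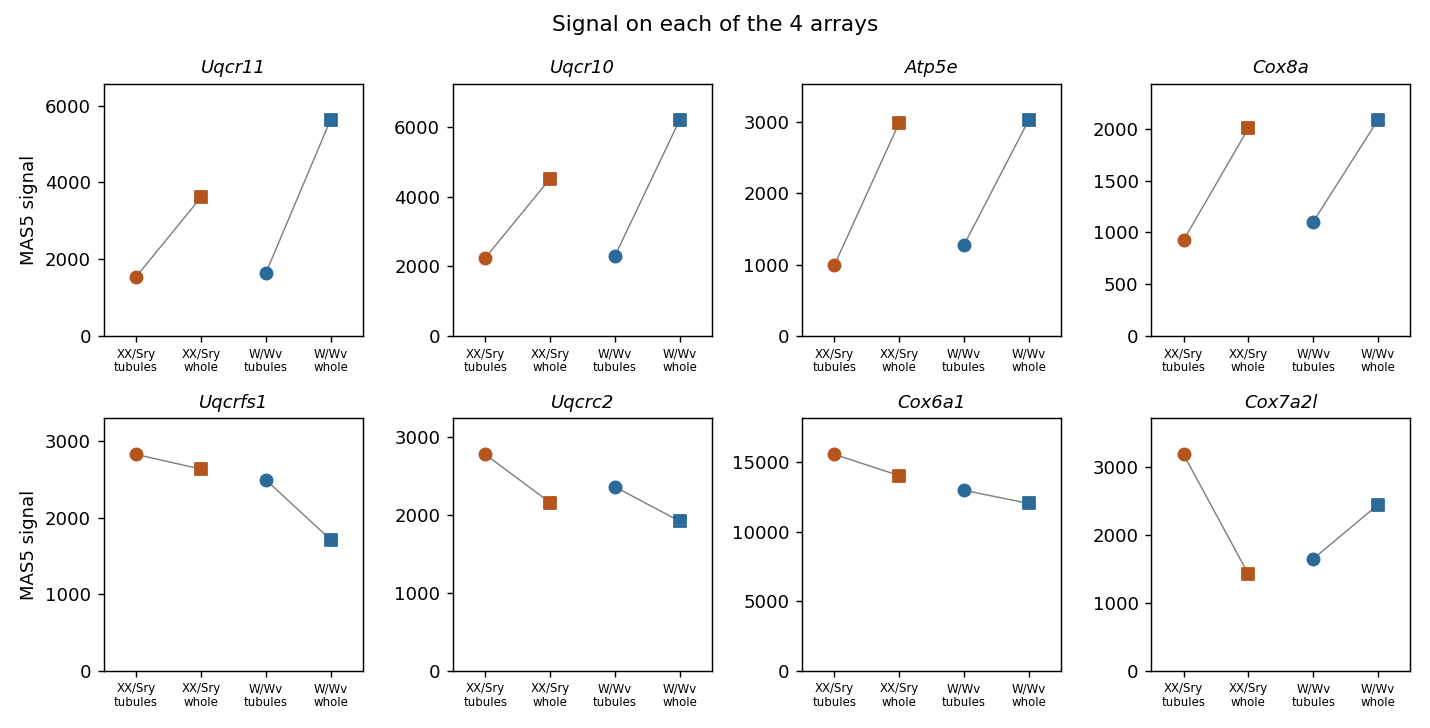
MAS5 signal (linear axes that start at 0) of 8 respiratory chain genes on each of the 4 arrays. Uqcr11, Uqcr10, Atp5e and Cox8a have lower signals in tubules than in whole testis of both genotypes, Uqcrfs1, Uqcrc2 and Cox6a1 slightly higher ones by the probe set drawn, and Cox7a2l has its highest signal, 3190, in XX/Sry tubules.

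Complex V, the ATP synthase, was the most uniform of the 5 complexes by share of genes. Of its 17 genes, 16 were lower in tubules of both genotypes, 6 of them by 1.5-fold or more, with medians of -0.54 in XX/Sry and -0.65 in W/Wv. The exception was Atp5c1, the gamma subunit that turns inside the catalytic head, which was 1.20-fold higher in XX/Sry tubules and 1.17-fold lower in W/Wv tubules. Atp5e, the epsilon subunit of the same rotor, had 993.5 in XX/Sry tubules and 2988 in XX/Sry whole testis, and 1276 in W/Wv tubules and 3030 in W/Wv whole testis. It fell in tubules of both genotypes, with a fitted log2 difference of -1.42 ± 0.245 (SE, limma adjusted p = 0.0203), and median centring took the adjusted p to 0.0537.

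The ring of c subunits, which proton flow turns, is encoded by 3 genes that yield the same mature protein. Atp5g1 was 1.92-fold lower in XX/Sry tubules and 2.10-fold lower in W/Wv tubules. Atp5g2 was 1.45-fold and 2.20-fold lower, and Atp5g3 1.72-fold and 1.58-fold lower. All 3 c subunit genes thus had lower signals in tubules. Among other membrane and stalk subunits, Atp5l (subunit g) was 1.94-fold lower in XX/Sry tubules and 2.12-fold lower in W/Wv tubules. Atp5j2 (subunit f) was 1.61-fold and 1.64-fold lower, and Atp5j (coupling factor 6) 1.51-fold and 1.57-fold lower. In the catalytic head, Atp5a1, the alpha subunit, was 1.31-fold and 1.37-fold lower, although its 3 probe sets disagreed in sign. Atp5b, the beta subunit that holds the active site, was 1.71-fold lower in XX/Sry tubules and 1.11-fold lower in W/Wv tubules.

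In complex I, which oxidises NADH, 28 of 38 genes were lower in tubules of both genotypes and 2 were higher, with medians of -0.41 in XX/Sry and -0.43 in W/Wv. The 6 genes that were lower by 1.5-fold or more in both were 5 accessory subunits and the core subunit gene Ndufs8. Ndufb2 was 2.32-fold lower in XX/Sry tubules and 1.77-fold lower in W/Wv tubules, and its second probe set also gave lower values (log2 ratios -1.55 and -1.42). Ndufc2 was 1.74-fold and 2.06-fold lower, and Ndufb6 1.65-fold and 1.84-fold lower, with a second probe set of each lower as well. Ndufb8 was 1.57-fold and 2.14-fold lower, and the dim Ndufb1, at most 516 on any array, 1.63-fold and 1.54-fold lower. These 5 accessory subunits all belong to the membrane arm of the complex. Ndufs8, an iron-sulfur protein of the core, was 3.47-fold lower in XX/Sry tubules and 1.51-fold lower in W/Wv tubules by its brightest probe set, but its 6 probe sets disagreed in sign.

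The 6 core subunits of complex I had medians of -0.34 in XX/Sry and -0.29 in W/Wv, and 6 of 6 were lower in XX/Sry tubules and 3 of 6 in W/Wv tubules. Ndufs1, the largest iron-sulfur subunit, was 1.08-fold lower in XX/Sry tubules and 1.15-fold higher in W/Wv tubules. Ndufv1, which binds NADH, was 1.20-fold and 1.55-fold lower. Of the 2 genes higher in both genotypes, Ndufaf4, an assembly factor, was 1.36-fold and 1.51-fold higher, with a second probe set that was lower in both. The other, Ndufb5, was 1.02-fold and 1.07-fold higher. Ndufa8 was 1.07-fold lower in XX/Sry tubules and 1.53-fold higher in W/Wv tubules. The 8 assembly factors of complexes I and II, which are not part of the finished enzymes, had medians of -0.29 in XX/Sry and -0.40 in W/Wv, with 5 lower in both genotypes.

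Complex IV, cytochrome c oxidase, has a catalytic centre encoded by mitochondrial DNA, so the 17 genes here encode the nuclear subunits around it, several of them as tissue isoforms. In tubules of both genotypes 12 were lower and 1 was higher, with medians of -0.49 in XX/Sry and -0.57 in W/Wv. Cox8a, the general isoform of subunit 8, had 926 in XX/Sry tubules and 2008 in XX/Sry whole testis, and 1103 in W/Wv tubules and 2090.3 in W/Wv whole testis. Both tubule signals were below both whole testis signals, but the gene did not pass the test (limma adjusted p = 0.0792). Cox7a1, the isoform of heart and skeletal muscle, was 1.88-fold lower in XX/Sry tubules and 2.33-fold lower in W/Wv tubules, and peaked at 982 in W/Wv whole testis. Of 6 skeletal muscle marker genes, 0 were above the background bound on all arrays. Cox5b was 1.59-fold and 1.67-fold lower by its brightest probe set. Its 4 probe sets above the bound were all lower in tubules of both genotypes.

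The remaining general isoforms of complex IV had smaller ratios than Cox8a. Cox4i1, a regulatory subunit that binds ATP, was 1.40-fold lower in XX/Sry tubules and 1.53-fold lower in W/Wv tubules. Cox6b1, which links the monomers of the enzyme, was 1.33-fold and 1.12-fold lower, and Cox7a2 1.24-fold and 1.20-fold lower. Cox5a was 1.06-fold lower in XX/Sry tubules and 1.05-fold higher in W/Wv tubules. Cox6a1, the non-muscle isoform of subunit 6a, had 15578 in XX/Sry tubules and 14052 in XX/Sry whole testis, and 12990 in W/Wv tubules and 12043 in W/Wv whole testis. Its second probe set was lower in tubules (log2 ratios -0.84 and -0.27), so its direction is not settled.

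Of the remaining isoforms, 5 had signals of 347 or less on every array. The muscle isoform Cox6a2 had at most 212 on any array. Cox6b2 and Cox8c, isoforms known from testis, had at most 214 and 347, both in XX/Sry whole testis. Cox8b, a muscle isoform, exceeded the bound in W/Wv whole testis alone, at 114. Cox4i2, an isoform known from lung, was above the bound on 3 arrays (XX/Sry tubules at 129, XX/Sry whole testis at 66.6, W/Wv whole testis at 232), and below it in W/Wv tubules.

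Complex II, succinate dehydrogenase, links the chain to the tricarboxylic acid cycle and is encoded in the nucleus alone. Of its 7 genes, 5 were lower in tubules of both genotypes, 0 of them by 1.5-fold in both, with medians of -0.39 in XX/Sry and -0.41 in W/Wv. Sdha, the flavoprotein that oxidises succinate, was 1.67-fold lower in XX/Sry tubules and 1.14-fold lower in W/Wv tubules. Sdhb, the iron-sulfur subunit, had 5202 in XX/Sry tubules and 6802 in XX/Sry whole testis, and 2668 in W/Wv tubules and 6783 in W/Wv whole testis. The W/Wv tubule array was low for this gene and the other 3 were closer together.

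Genes outside the symbol rule that act with the chain or in the same organelle were set beside it, from lists that do not overlap with the 87. The 20 genes of the tricarboxylic acid cycle and pyruvate dehydrogenase had medians of 0.04 in XX/Sry and 0.04 in W/Wv, with 5 lower and 7 higher in tubules of both genotypes. Citrate synthase (Cs) was 1.29-fold higher in XX/Sry tubules and 1.21-fold higher in W/Wv tubules. The 19 carriers, channels and import genes had medians of -0.07 and -0.13, with 5 lower in both. The 17 regulators of mitochondrial biogenesis had medians of 0.11 and 0.03, with 4 lower in both, and the 10 antioxidant and uncoupling genes 0.03 and -0.18, with 3 lower in both. None of the genes on these 4 lists passed the limma test for preparation. These 4 medians lay nearer 0 than that of the chain, but the differences between the lists were not tested.

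Some other lists were lower. The 18 genes of cytochrome c, ubiquinone synthesis and electron transfer to ubiquinone had medians of -0.22 in XX/Sry and -0.44 in W/Wv, with 8 lower in both. Of them Etfb, a subunit of the electron transfer flavoprotein that feeds electrons from fatty acid oxidation, had 1319 in XX/Sry tubules and 3625 in XX/Sry whole testis, and 1036 in W/Wv tubules and 3633 in W/Wv whole testis. Etfb was the 1 gene of the list that fell (fitted log2 difference -1.63, limma adjusted p = 0.00974). The list also held Cyc1, the cytochrome c1 subunit of complex III, whose symbol falls outside the rule (fitted log2 difference -0.12, limma adjusted p = 0.894). The 28 assembly factors with other symbols had medians of -0.18 and -0.20, with 14 lower in both. The 74 mitochondrial ribosomal protein genes had medians of -0.28 and -0.20, with 38 (51.4%) lower in both. The 48 cytosolic ribosomal protein genes, which have no part in respiration, had medians of -0.37 and -0.40, with 37 (77.1%) lower in both, a share like that of the respiratory chain genes. Of the subunits encoded by mitochondrial DNA, ND5 was measured, with 14767 in XX/Sry tubules and 23938 in XX/Sry whole testis, and 23704 in W/Wv tubules and 23730 in W/Wv whole testis.

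**Figure D3:**
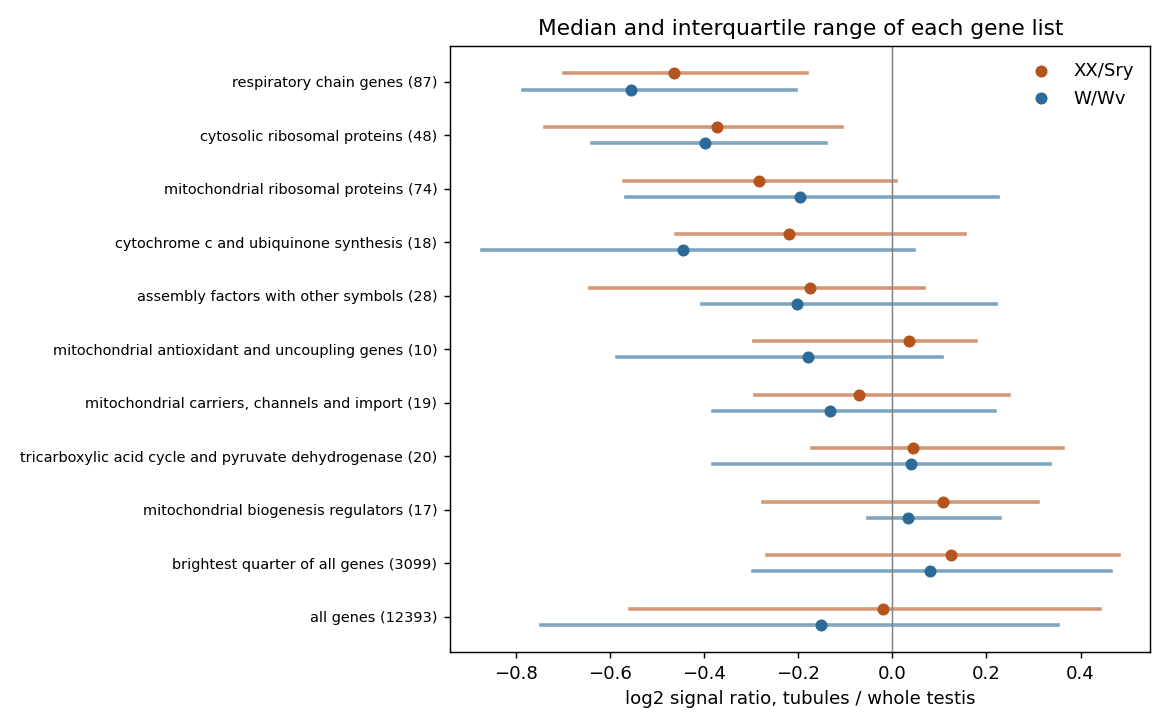
Median log2 ratio of tubules over whole testis for the respiratory chain genes and the gene lists set beside them, in XX/Sry and in W/Wv (points, medians; lines, interquartile range over genes; a log2 axis on which 0 means equal signals; number of genes in parentheses). The respiratory chain genes (-0.46 and -0.56) lie near the cytosolic ribosomal protein genes (-0.37 and -0.40) and below the tricarboxylic acid cycle genes (0.04 and 0.04).

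Markers of Leydig cells and macrophages, both interstitial cells, were lower in tubules as well. Of the 5 endothelial markers, 4 were higher and 1 lower in tubules of each genotype. Their median log2 ratio was 0.55 in XX/Sry and 0.48 in W/Wv, and 4 were above the bound on all arrays. The summed signal of the 5 measured Leydig cell markers was 21820 in XX/Sry tubules and 57785 in XX/Sry whole testis, and 9134 in W/Wv tubules and 36461 in W/Wv whole testis. Of the 5, 4 fell in the fit (Cyp11a1, Hsd3b1, Hsd17b3 and Star), all enzymes or carriers of steroid synthesis, and 0 were at background. The 7 macrophage markers summed to 2121 in XX/Sry tubules and 13869 in XX/Sry whole testis, and to 3494 in W/Wv tubules and 10380 in W/Wv whole testis, and 7 of 7 fell. The 9 Sertoli cell markers summed to 67730 in XX/Sry tubules and 61519 in XX/Sry whole testis, and to 81362 in W/Wv tubules and 51624 in W/Wv whole testis, with 0 called. Leydig cell transcripts were still present in tubules.

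Some other marker lists differed between the preparations as well. The 12 germ cell markers summed to 953 in XX/Sry tubules and 1013 in XX/Sry whole testis, with 5 and 4 of them above the bound. In W/Wv they summed to 951 in tubules, with 5 above the bound, and to 6193 in whole testis, with all 12 above it. Of these markers 0 were called. The 5 peritubular and smooth muscle markers summed to 12944 in XX/Sry tubules and 9178 in XX/Sry whole testis, and to 12258 in W/Wv tubules and 6198 in W/Wv whole testis. The 7 immediate early genes, which respond to tissue handling, summed to 7156 in XX/Sry tubules and 2666 in XX/Sry whole testis, and to 12107 in W/Wv tubules and 3315 in W/Wv whole testis, and Fos, Jun and Egr1 rose. The part of cell composition and of the collagenase step in the lower respiratory chain signals was not tested.

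Between the genotypes, 0 of the respiratory chain genes passed the limma test. The study compared XX/Sry with W/Wv testes as somatic surroundings for spermatogenesis. The median log2 ratio of XX/Sry over W/Wv was 0.14 in tubules and 0.09 in whole testis, against 0.00 and -0.10 over all genes and -0.01 and -0.02 over the brightest genes. In both preparations 37 of 87 genes (42.5%) were higher in XX/Sry, against 23.8% of all genes and 27.3% of the brightest genes, and 18 (20.7%) were lower, against 30.4% and 29.3%. The other 32 (36.8%) ran in opposite directions, against 45.5% of all genes and 43.4% of the brightest genes. By 1.5-fold or more in both, 0 were higher, against 5.04% of all genes and 96 of the 3099 brightest genes. In the other direction 1 was lower, against 7.46% of all genes and 73 of the 3099 brightest genes. That 1 gene was Cox8b, whose only signal above background was the one in W/Wv whole testis. The limma fit called 0 of the 87 genes in either direction, with a smallest adjusted p of 0.492, against 0.113% of all genes called higher and 0.0242% called lower. Without adjustment, 3 of 87 had p under 0.05 with higher signals in XX/Sry, against 4.28% of all genes, and 1 with lower signals, against 5.07%, so neither count exceeded its background. The 5 Leydig cell markers were also higher in XX/Sry in both preparations (5 of 5, median log2 ratios 1.34 in tubules and 0.63 in whole testis, 0 called), and their part in the respiratory chain values was not tested.

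**Figure D4:**
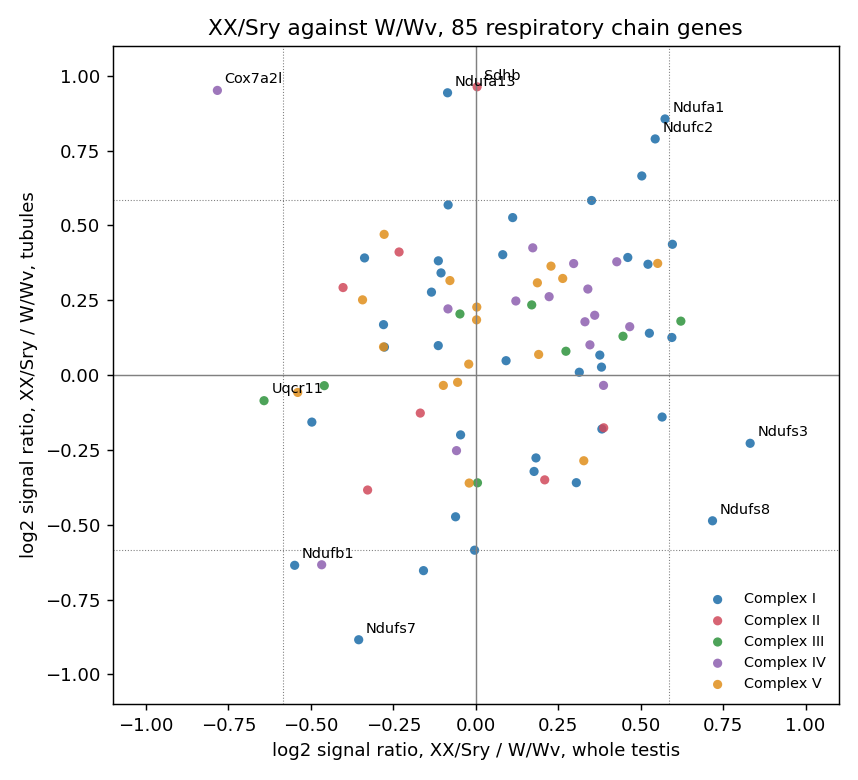
Log2 ratio of XX/Sry over W/Wv in tubules and in whole testis for the 85 genes above the background bound on all arrays, 1 point per gene, coloured by complex, with dotted lines at 1.5-fold. The points spread around 0 on both axes with few beyond 1.5-fold, and Cox7a2l lies apart with -0.78 in whole testis and 0.95 in tubules.

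By complex, the medians of XX/Sry over W/Wv were 0.10 in tubules and 0.14 in whole testis for complex I, -0.13 and -0.17 for complex II, 0.10 and 0.09 for complex III, 0.22 and 0.22 for complex IV, and 0.18 and -0.02 for complex V. In complex IV, 10 of 17 genes were higher in XX/Sry in both preparations. Among the 85 genes above the background bound on all arrays, those with the highest mean ratios were Ndufa1, Ndufc2, Ndufb6, Ndufs5 and Sdhb, and those with the lowest were Ndufs7, Ndufb1, Cox7c, Ndufaf3 and Uqcr11. Ndufc2, an accessory subunit of complex I, was 1.73-fold higher in XX/Sry tubules and 1.46-fold higher in XX/Sry whole testis. Ndufb6, likewise of the membrane arm, was 1.59-fold and 1.42-fold higher, and Ndufs5 1.35-fold and 1.51-fold higher. None of these differences passed the test. Ndufs7, an iron-sulfur protein of the complex I core, was 1.85-fold and 1.28-fold lower. Ndufb1 was 1.55-fold lower in XX/Sry tubules and 1.46-fold lower in XX/Sry whole testis, Cox7c 1.55-fold and 1.38-fold, and the assembly factor gene Ndufaf3 1.57-fold and 1.12-fold. Cox7c was dim, with at most 250 on any array. Uqcr11 was 1.06-fold lower in XX/Sry tubules and 1.56-fold lower in XX/Sry whole testis. Sdhb differed in tubules alone, with 5202 in XX/Sry and 2668 in W/Wv, against 6802 in XX/Sry whole testis and 6783 in W/Wv whole testis.

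The 2 X-linked genes of the group are given separately because XX/Sry males carry an additional X chromosome, whose part in the values below was not tested. Ndufa1, an accessory subunit needed for assembly of complex I, had 9915 in XX/Sry tubules and 5478 in W/Wv tubules, while it had 10187 in XX/Sry whole testis and 6843 in W/Wv whole testis. Both XX/Sry arrays were above both W/Wv arrays, by 1.81-fold and 1.49-fold, without passing the test. Ndufb11, another X-linked accessory subunit, was 1.03-fold and 1.07-fold higher. Over all 402 X-linked genes, the median log2 ratio was 0.14 in tubules and -0.04 in whole testis, and over the 123 X-linked genes among the brightest it was 0.13 and 0.09.

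Cox7a2l, whose protein joins complexes III and IV into supercomplexes, was the 1 gene with all signals above the bound that differed by 1.5-fold or more in opposite directions. It had 3190 in XX/Sry tubules and 1650 in W/Wv tubules, while it had 1423 in XX/Sry whole testis and 2449 in W/Wv whole testis. It was thus 1.93-fold higher in XX/Sry in tubules and 1.72-fold lower in whole testis. Its other 2 probe sets ran the same way, with log2 ratios of 0.60 and 0.57 in tubules and of -0.12 and -0.40 in whole testis. With 1 array per group, this difference could not be tested.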

How the data were processed

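RNA from 4 samples, 1 per group, was hybridised to Affymetrix Mouse Expression 430A arrays. The deposited values are linear array intensity, computed by the authors with MAS5 per the submitters' processing notes and with Microarray Suite 5.0 per the design text. The sources used here give neither a scaling target nor detection calls. With 1 array per group, the number of arrays limits the precision. Where both preparations share animals, the fit's error holds no spread between animals.

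Of 22690 probe sets, 64 controls were set aside. The platform annotation gave 1 symbol to 20380 of the other 22626, several to 691 and none to 1555. Of the 691, 8 name a respiratory chain gene together with another gene and were left out of the group. Symbols were checked by Entrez identifier against RefSeq (20351 matched, 0 changed). Log2 ratios were taken as tubules over whole testis within a genotype and XX/Sry over W/Wv within a preparation. Where the dimmer signal lay below the background bound, a fold is a lower limit. The fit used limma 3.58.1 in R 4.3.3 (lmFit, eBayes with a trend on mean signal, two-sided, Benjamini-Hochberg adjustment, called at 0.05) and was tested on simulated data. Other steps used Python 3.11.15, pandas 2.3.3 and numpy 2.4.6.

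Genes were named when they differed by 1.5-fold the same way in both pairs, or in opposite ways with all signals above the bound, were among the 5 highest or lowest mean ratios of a comparison among genes above the bound on all arrays, were tissue isoforms of one another, X-linked, or central catalytic subunits. Atp5c1, Uqcrb, Ndufb5, Cs, Etfb and Cyc1 fall outside that rule and were chosen after their values were seen. The genes, lists and division into core and accessory subunits were chosen with earlier results of these data known. Alternatives were other scalings, an added constant, other choices of probe set, a filter on dim genes, the 2-fold threshold and no variance trend.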

Additional observations from a re-analysis of the deposited data

Results flagged for a closer look

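Cox7a2l stood out because its difference between the genotypes took opposite directions in the 2 preparations. The log2 ratio of XX/Sry over W/Wv was 0.95 in tubules and -0.78 in whole testis, so that they lay 1.735 apart. The difference between the preparations was not tested, because each group had 1 array.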

How the results depend on the processing

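Centring each array on its median log2 signal moved the median log2 ratio of all genes to 0.09 in XX/Sry and 0.07 in W/Wv for tubules over whole testis, against -0.02 and -0.15 as deposited. The median of the respiratory chain genes was then -0.35 in XX/Sry and -0.33 in W/Wv, and 52 of 87 were lower in both genotypes, against 26.1% of all genes. With the same centring 10 genes were lower in tubules by 1.5-fold in both genotypes and 3 were higher in XX/Sry by 1.5-fold in both preparations. Shares of all genes at 1.5-fold were counted on the deposited scale alone. Centring left 1 gene called for preparation, Uqcr11, while 85 of all 12393 genes were called lower and 38 higher. Under the other alternatives 64 (quantile normalisation) to 69 (mean of all probe sets) of 87 were lower in both genotypes, against 28.6% and 35.6% of all genes. When probe sets with an _s_at, _x_at or _a_at suffix were left out, 51 of 66 were lower in both, against 34.4% of all genes, and the XX/Sry median was -0.57. Leaving out those probe sets reversed Cox5b to a mean log2 ratio of 0.67 in tubules, from a probe set not above the background bound on all arrays. For preparation, 4 genes were called after quantile normalisation (Uqcr11, Atp5e, Uqcr10 and Cox8a) and 0 without a variance trend. Of all 12393 genes, quantile normalisation called 165 lower and 41 higher, and the fit without a trend called 0. Which genes were called depended on the probe sets. Without suffixed ones the 4 called were Uqcr11, Atp5j2, Ndufc2 and Ndufs7, the last with a fitted log2 difference of -1.14 against 0.00 by its brightest probe set. In that setting 157 of all 10529 genes were called lower and 47 higher. With probe sets averaged the 3 called were Uqcr11, Atp5e and Ndufb2, and with 50 added to every signal the 2 called were Uqcr11 and Atp5e. Of all 12393 genes, averaging called 146 lower and 40 higher, and adding 50 called 128 lower and 22 higher. At 2-fold, 3 genes were lower in tubules. The count of genes 1.5-fold lower in XX/Sry was 2 when all probe sets were averaged, and 0 with 50 added to every signal, with dim genes left out, or at 2-fold. Of the other named values under these alternatives, 159 moved by 0.1 or less on the log2 scale and 42 by more, without a change of sign among called values. The cause of these shifts was not tested. Probe sets disagreed in sign for 15 of 43 genes with several above the bound in XX/Sry and 11 of 43 in W/Wv (tubules over whole testis). For XX/Sry over W/Wv they disagreed for 16 of 43 genes in tubules and 19 of 43 in whole testis. No paired analysis was possible because each group had 1 array and the labels carry no replicate numbers to use as a block. The additive fit matches arrays by genotype and preparation alone.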
